A study of Mus musculus with 12 samples.

Results

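The collagen chain genes were studied in RNA sequencing of bone marrow-derived macrophages (BMDMs), macrophages grown in culture from mouse bone marrow. They were taken as every gene in the deposited table whose symbol has the form Col, a number, a and a number, which gave 44 genes of 55335. Of these 44, 17 were detected, which means FPKM of 1 or more in at least 3 of the 12 libraries, beside 12622 detected genes in the whole table. FPKM, fragments per kilobase scaled by the size of the library, is a level per length, so levels of different genes can be set side by side. By structure, the 44 genes comprised 11 fibrillar chains, 6 basement membrane chains (type IV) and 27 other chains.

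Collagens are secreted proteins whose chains wind around each other into a stiff helix, and each chain has its own gene. Fibrillar collagens pack into the tensile fibrils of tendon, bone and skin, type IV forms the sheet under epithelia and vessels, and the other chains decorate fibrils, form beaded filaments or anchor cells. In connective tissue they are made mainly by fibroblasts, osteoblasts and other mesenchymal cells, whereas macrophages are better known for taking collagen up and degrading it.

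The 12 libraries fall into 4 groups of 3, which are unstimulated (control) and LPS+ATP-stimulated cells of wild-type mice and the same of mice without Nlrp3 (Nlrp3-/-). Lipopolysaccharide (LPS) primes the NLRP3 inflammasome, a protein complex that activates caspase-1, and extracellular ATP then triggers it. The sample labels give LPS for 4 h and then ATP for 30 min, whereas the study's methods for these cultures give 12 h and then 2 h. Per those methods, marrow came from femurs and tibiae of mice aged 8 weeks and was cultured for 7 days with macrophage colony-stimulating factor (M-CSF) at 40 ng/ml, a factor that all 4 groups shared. Marrow also holds stromal cells that adhere and grow, and no sort of the cells is described. Neither the labels nor the methods say whether the 3 libraries of a group came from separate mice, so p-values measure the spread between these libraries, which may be technical.

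Nlrp3 itself, the deleted gene, was listed at 0 FPKM in all 6 Nlrp3-/- libraries and lay between 9.24 and 33.6 FPKM in the 6 wild-type libraries. Library groups differed in more than that gene. Xist, which marks an inactive X chromosome, was at most 0.0416 FPKM in wild-type libraries and 32.8 to 56.3 FPKM in Nlrp3-/- libraries, and 4 genes of the Y chromosome (Uty, Kdm5d, Eif2s3y and Ddx3y) were above 0 in all wild-type libraries and at 0 in all Nlrp3-/- libraries. Nnt, which differs between C57BL/6 substrains, was 4.09 to 10.3 FPKM in wild-type and 0.670 to 1.47 FPKM in Nlrp3-/- libraries. Genotype, sex of the donor and substrain therefore cannot be told apart in any genotype difference below. Summed FPKM per library ran from 283278 to 299393, and the relative depth that low values imply from 1.0 to 1.22. The defining macrophage markers were high in every library, with Lyz2 at 17722 to 18839 FPKM in wild-type control and 17533 to 17785 FPKM in Nlrp3-/- control, although Cd68, at 1424 to 1478 and 869 to 889 FPKM, and Csf1r, at 248 to 258 and 161 to 167 FPKM, were lower in Nlrp3-/- control without overlap. In bulk RNA, fewer cells of a type and less RNA per cell cannot be told apart.

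Mean FPKM was lower after LPS+ATP in both genotypes for 9 of the 17 detected genes, of which Col6a3, Col12a1 and Col16a1 turned to higher in wild-type under median-ratio scaling. Promoter stretches are shown for 3 of them, Col3a1 and the neighbours Col6a1 and Col6a2, as examples chosen after their values were seen. These 3 had the highest mean FPKM of the 9 in Nlrp3-/- control. They were read from RefSeq on GRCm38.p6, 5′ to 3′ on the strand of the gene, as the exon-free bases within 250 bases before the start site. For Col6a1 the stretch ends 124 bases before the start, because an annotated exon lies between. Capitals mark TATAAA, the letters searched for the TATA box, wherever they stood. In Col3a1 they stand near the middle of the stretch, and whether they act as a TATA box was not tested.
Col3a1, chr1:45311288-45311537, plus strand: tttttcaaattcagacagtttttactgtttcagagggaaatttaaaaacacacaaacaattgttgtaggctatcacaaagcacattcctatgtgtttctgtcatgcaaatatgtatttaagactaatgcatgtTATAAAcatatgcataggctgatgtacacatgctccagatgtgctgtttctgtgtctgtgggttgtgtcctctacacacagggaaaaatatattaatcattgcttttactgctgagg
Col6a1, chr10:76726169-76726294, minus strand: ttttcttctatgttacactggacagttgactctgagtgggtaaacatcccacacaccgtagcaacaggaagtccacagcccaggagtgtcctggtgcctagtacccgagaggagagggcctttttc
Col6a2, chr10:76623631-76623880, minus strand: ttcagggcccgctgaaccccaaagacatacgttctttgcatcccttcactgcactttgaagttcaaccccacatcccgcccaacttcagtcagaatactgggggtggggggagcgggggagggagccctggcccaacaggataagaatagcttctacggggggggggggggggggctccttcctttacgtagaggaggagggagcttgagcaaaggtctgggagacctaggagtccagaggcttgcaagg
Both strands were searched for TATAAA and for CCAAT, the letters of the CCAAT box. TATAAA stood in 12.4% of 32851 promoter windows of the genome and CCAAT in 33.8%. The 14 detected collagen genes with a matched promoter had 16 windows. TATAAA stood in 1 of these windows (6.25%), that of Col3a1, and CCAAT in 7 (43.75%), from 7 genes. The Col6a1 and Col6a2 stretches held neither, which says only that these letters are not in these windows. RefSeq promoters were matched for 35 of the 44 collagen genes.

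Col6a1 and Col6a2 lie next to each other on chromosome 10, Col3a1 and Col5a2 on chromosome 1, and Col4a1 and Col4a2 on chromosome 8, where the RefSeq starts of both lie on opposite strands and overlap by 22 bases. Col1a1 lies on chromosome 11, which also carries Nlrp3, and Col1a2 on chromosome 6. Of the 17 detected genes, 12 share no exonic base with another gene in the GENCODE annotation. Col3a1 shares 1.44% of its exonic bases with Gm47302 on the same strand. Col5a1 (2.497%), Col4a2 (0.982%), Col4a1 (0.295%) and Col15a1 (0.221%) overlap genes on the other strand, and whether fragments were counted by strand is not given in the sources used here.

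Detection differed between the classes. Fibrillar chains were detected for 7 of 11 genes, type IV chains for 2 of 6 (Col4a1 and Col4a2) and other chains for 8 of 27. With FPKM of 0.5 or more as the limit, 21 of the 44 were detected, namely 9 fibrillar, 2 type IV and 10 other genes. The detected other chains were Col6a1, Col6a2 and Col6a3 of type VI, which forms beaded microfilaments, Col12a1 and Col16a1, which bind to fibril surfaces, Col8a1, a short network-forming chain, and Col15a1 and Col18a1 of the basement membrane zone. Because detection used these libraries' own values, it is a description. Col11a1 and Col15a1 reached FPKM 1 in the 3 Nlrp3-/- control libraries and in no other, so passing the limit required them to be higher there. Just inside the limit, Col15a1 was 1.62 to 1.75 FPKM and Col11a1 3.94 to 4.43 FPKM in Nlrp3-/- control. Just outside it, Col23a1 reached 0.964 FPKM and Col11a2 0.822 FPKM in their highest libraries.

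**Figure D1:**
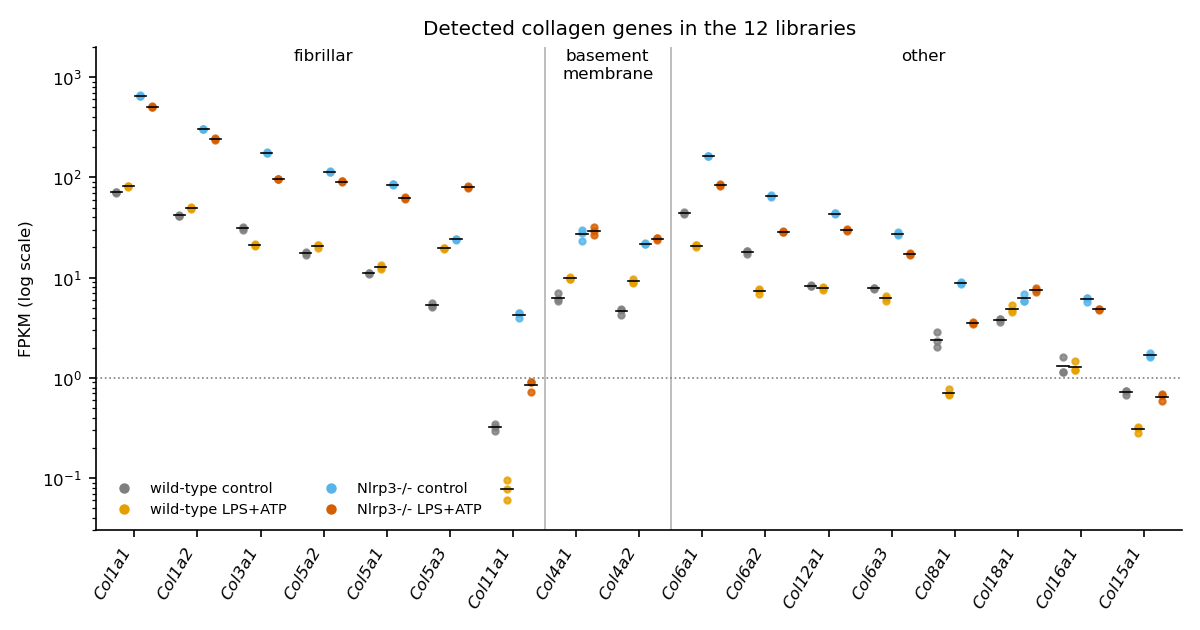
FPKM of the 17 detected collagen genes, grouped by class, on a log axis, with 1 point per library, 3 libraries per group and a bar at the group mean. The dotted line marks FPKM 1. Nlrp3-/- points lie above the wild-type points of the same stimulation state for all 17 genes, and Col5a3 is higher after LPS+ATP in both genotypes.

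Collagen RNA as a whole was several times higher in Nlrp3-/- than in wild-type BMDMs, and most of the difference lay in fibrillar chains. Summed over the 44 genes, collagen FPKM was 278 ± 4.22 (SD, n = 3) in wild-type control and 1737 ± 9.19 (SD, n = 3) in Nlrp3-/- control, a ratio of 6.25. After LPS+ATP the sums were 277 ± 4.29 (SD, n = 3) and 1316 ± 9.80 (SD, n = 3), a ratio of 4.75. As a share of all FPKM in the library, collagens made up 0.0933% in wild-type control, 0.0961% in wild-type LPS+ATP, 0.586% in Nlrp3-/- control and 0.464% in Nlrp3-/- LPS+ATP. Under TPM, median-ratio and upper-quartile scaling the ratio of the genotypes ran from 5.62 to 6.28 in control and from 4.16 to 4.83 after LPS+ATP. The stimulation ratio in wild-type was 0.998 with FPKM, 1.03 with TPM, 1.13 with upper-quartile and 1.25 with median-ratio scaling, so its direction depended on the scaling. In Nlrp3-/- it was 0.758, 0.792, 0.828 and 0.929 in the same order.

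The genotype ratio of the summed FPKM differed by class, which was not tested. Summed fibrillar FPKM was 176 to 180.2 in wild-type control and 1353 to 1371 in Nlrp3-/- control, a ratio of 7.63. Type IV chains summed to 10.4 to 12.1 and 45.4 to 51.9, a ratio of 4.45, and the other chains to 86.9 to 89.1 and 323 to 329, a ratio of 3.69. After LPS+ATP the ratios were 5.25 for fibrillar, 2.81 for type IV and 3.48 for other chains. Fibrillar genes held 64.3 ± 0.135% (SD, n = 3) of collagen FPKM in wild-type control, 74.5 ± 0.368% in wild-type LPS+ATP, 78.4 ± 0.111% in Nlrp3-/- control and 82.3 ± 0.119% in Nlrp3-/- LPS+ATP. Their share was thus higher in Nlrp3-/- and, within each genotype, higher after LPS+ATP, with no overlap between groups. The share of type IV chains was 3.97 ± 0.290%, 6.90 ± 0.261%, 2.83 ± 0.200% and 4.08 ± 0.176% in the same order, and that of other chains 31.8 ± 0.155%, 18.6 ± 0.306%, 18.7 ± 0.120% and 13.6 ± 0.185%. Counting Col7a1, Col15a1 and Col18a1 with type IV raised that class to 15.7 FPKM in wild-type control and 57.5 FPKM in Nlrp3-/- control, a ratio of 3.67.

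**Figure D2:**
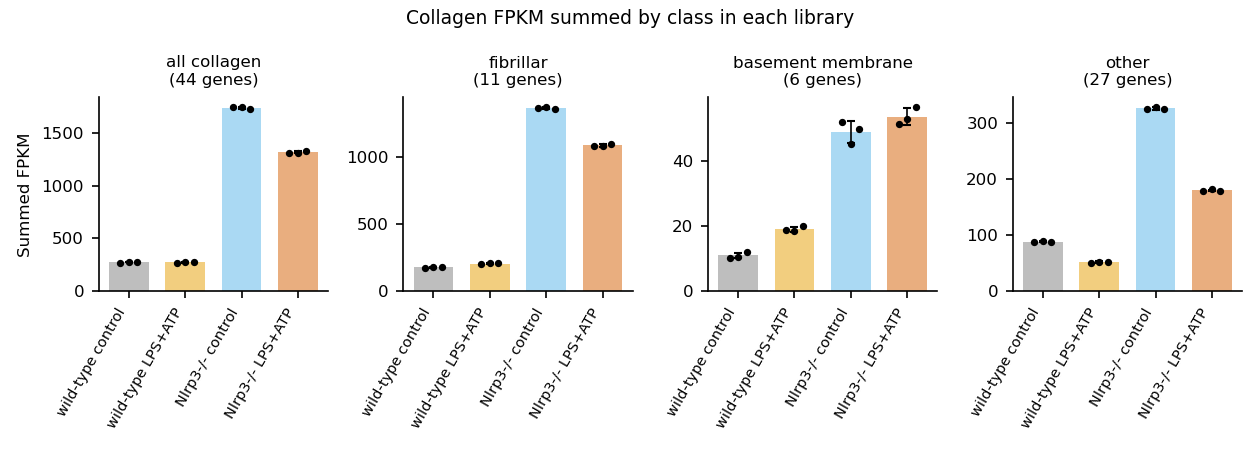
Summed FPKM of all 44 collagen genes and of the 3 classes, with bars at the mean of 3 libraries, error bars of 1 SD and a point per library. Fibrillar chains are lower in Nlrp3-/- LPS+ATP than in Nlrp3-/- control while type IV chains are not, and the other chains are lower after LPS+ATP in both genotypes.

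Differences between groups were tested for each gene with limma on log2(FPKM + 1), fitted over all 12622 detected genes with Benjamini-Hochberg adjusted p-values. A gene was called with an adjusted p under 0.05 and a log2 difference of at least 1 in either direction. On this scale the change of genes with low FPKM is understated. In control cells, 15 of the 17 detected collagen genes were called higher in Nlrp3-/- and 0 lower, where 6.02% of all tested genes were called higher and 0.689% lower. After LPS+ATP, 14 were called higher and 0 lower, where 4.48% of tested genes were called higher and 0.57% lower. The collagen family was proposed with the higher level of its members in Nlrp3-/- known, and Col11a1 and Col15a1 passed the limit only through Nlrp3-/- control, so these counts describe the family and are no independent support for a difference. The median log2 difference of the 17 was 1.99 in control, beside 0.09 over all tested genes, and 1.81 after LPS+ATP, beside 0.11. By class, the median in control was 2.64 for the 7 fibrillar, 1.98 for the 2 type IV and 1.66 for the 8 other genes, and 2.14, 1.40 and 1.37 after LPS+ATP.

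In both states the Nlrp3-/- libraries lay wholly above the wild-type libraries for all 17 detected genes, as they did for 38% of all tested genes in control and 41.7% after LPS+ATP. All 44 members can also be read without the limit on FPKM. In control cells the Nlrp3-/- libraries lay wholly above the wild-type libraries for 30 of the 44 genes, wholly below for 1 and overlapped for 13. Over all 55335 rows, 13.2% lay wholly above and 4.89% wholly below. After LPS+ATP the counts were 25 above, 1 below and 18 overlapping, where 12.9% of all rows lay above and 4.59% below. The gene below in both states was Col23a1, a transmembrane collagen, and it was named after its values were seen. Col23a1 was 0.839, 0.964 and 0.876 FPKM in wild-type control and 0.377, 0.470 and 0.708 FPKM in Nlrp3-/- control.

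Type I collagen, the main protein of tendon and bone matrix, had the most abundant collagen chain, Col1a1, in all 4 groups. Col1a1 was 70.1, 72.1 and 71.2 FPKM in wild-type control, 82.4, 81.0 and 82.1 FPKM in wild-type LPS+ATP, 652, 660.0 and 643 FPKM in Nlrp3-/- control, and 505, 509 and 510.1 FPKM in Nlrp3-/- LPS+ATP. Col1a2 was 41.3, 42.2 and 41.6 FPKM in wild-type control, 48.0, 50.7 and 49.1 FPKM in wild-type LPS+ATP, 305, 306 and 301 FPKM in Nlrp3-/- control, and 243, 237 and 247 FPKM in Nlrp3-/- LPS+ATP. In the files these are ENSMUSG00000001506 and ENSMUSG00000029661. For both chains the 4 groups did not overlap, and every Nlrp3-/- library stood above every wild-type library. Col1a1 differed between genotypes by 3.18 (SE 0.02, adjusted p = 6.10e-15) on the log2 scale in control and by 2.62 (SE 0.02, adjusted p = 2.46e-14) after LPS+ATP, by limma. In control, this ranked 11 from the highest among 12622 tested genes. Col1a2 differed by 2.84 (SE 0.03, adjusted p = 7.25e-14) and 2.28 (SE 0.03, adjusted p = 5.09e-13) by limma. In order of mean FPKM among detected genes, Col1a1 stood at 531 in wild-type control and at 46 in Nlrp3-/- control.

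Type III collagen, a chain of elastic and healing tissue that co-assembles with type I, was lower after LPS+ATP. Col3a1 was 29.5, 31.7 and 31.5 FPKM in wild-type control, 20.6, 21.8 and 21.3 FPKM in wild-type LPS+ATP, 176, 175 and 179 FPKM in Nlrp3-/- control, and 97.0, 96.0 and 96.7 FPKM in Nlrp3-/- LPS+ATP. The 4 groups did not overlap, and in both genotypes the stimulated libraries were the lower ones. The genotype difference was 2.48 (SE 0.03, adjusted p = 6.34e-13) in control and 2.14 (SE 0.03, adjusted p = 4.32e-12) after LPS+ATP, by limma on the log2 scale.

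Type V collagen sits inside type I fibrils and sets their diameter, and all 3 of its chains were detected. Col5a1 was 10.9, 11.1 and 11.2 FPKM in wild-type control, 12.3, 13.4 and 12.7 FPKM in wild-type LPS+ATP, 85.1, 85.0 and 84.7 FPKM in Nlrp3-/- control, and 61.9, 60.3 and 63.3 FPKM in Nlrp3-/- LPS+ATP. Col5a2 was 17.6, 16.9 and 17.8 FPKM in wild-type control, 19.8, 21.3 and 21.2 FPKM in wild-type LPS+ATP, 115, 114 and 114 FPKM in Nlrp3-/- control, and 90.5, 91.1 and 91.2 FPKM in Nlrp3-/- LPS+ATP. Both chains kept the order of Col1a1, with Nlrp3-/- control highest, then Nlrp3-/- LPS+ATP, wild-type LPS+ATP and wild-type control, and no 2 groups overlapped. By limma, Col5a1 differed between genotypes by 2.84 (SE 0.03, adjusted p = 4.45e-13) in control and 2.19 (SE 0.03, adjusted p = 5.20e-12) after LPS+ATP. For Col5a2 the differences were 2.64 (SE 0.03, adjusted p = 4.85e-13) and 2.08 (SE 0.03, adjusted p = 5.20e-12) by limma.

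Col5a3, the third type V chain, departed from this order. Col5a3 was 5.13, 5.23 and 5.63 FPKM in wild-type control, 19.8, 19.4 and 19.9 FPKM in wild-type LPS+ATP, 23.7, 24.4 and 24.5 FPKM in Nlrp3-/- control, and 79.2, 81.6 and 81.1 FPKM in Nlrp3-/- LPS+ATP. Here Nlrp3-/- LPS+ATP was highest, followed by Nlrp3-/- control, wild-type LPS+ATP and wild-type control, with no overlap between groups. Its genotype difference was 1.99 (SE 0.04, adjusted p = 7.90e-12) in control and 1.98 (SE 0.04, adjusted p = 1.07e-11) after LPS+ATP, by limma.

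The last detected fibrillar chain was Col11a1, a minor chain of cartilage fibrils that is also made in other tissues. Col11a1 was 0.320, 0.347 and 0.294 FPKM in wild-type control, 0.0770, 0.0601 and 0.0954 FPKM in wild-type LPS+ATP, 4.39, 4.43 and 3.94 FPKM in Nlrp3-/- control, and 0.723, 0.914 and 0.902 FPKM in Nlrp3-/- LPS+ATP. Only the Nlrp3-/- control libraries were above FPKM 1, and the groups did not overlap. The genotype difference on the log2(FPKM + 1) scale was 1.99 (SE 0.06, adjusted p = 4.52e-10) in control and 0.78 (SE 0.06, adjusted p = 1.24e-06) after LPS+ATP by limma, and the second value was not called. As a ratio of mean FPKM the genotypes stood 13.3 to 1 in control and 10.9 to 1 after LPS+ATP.

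The type IV chains Col4a1 and Col4a2 form the common heterotrimer of basement membranes. Col4a1 was 6.12, 5.78 and 6.997 FPKM in wild-type control, 9.71, 9.62 and 10.2 FPKM in wild-type LPS+ATP, 30.0, 23.4 and 27.8 FPKM in Nlrp3-/- control, and 26.5, 29.3 and 31.8 FPKM in Nlrp3-/- LPS+ATP. Col4a2 was 4.21, 4.74 and 4.88 FPKM in wild-type control, 9.05, 8.84 and 9.71 FPKM in wild-type LPS+ATP, 21.5, 21.7 and 22.0 FPKM in Nlrp3-/- control, and 24.9, 23.6 and 24.9 FPKM in Nlrp3-/- LPS+ATP. Nlrp3-/- libraries lay above wild-type libraries for both genes in both states, while for Col4a1 the 2 Nlrp3-/- groups overlapped. By limma, Col4a1 was higher in Nlrp3-/- by 1.94 (SE 0.09, adjusted p = 1.75e-08) in control and 1.48 (SE 0.09, adjusted p = 2.04e-07) after LPS+ATP. Col4a2 was higher by 2.02 (SE 0.05, adjusted p = 9.69e-11) and 1.32 (SE 0.05, adjusted p = 4.29e-09) by limma. The other 4 type IV genes, Col4a3 to Col4a6, were at most 0.291 FPKM in any library, the highest being Col4a5 in Nlrp3-/- control.

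Type VI collagen links cells to the surrounding fibrils. Col6a1 was 43.3, 45.2 and 43.6 FPKM in wild-type control, 20.01, 21.4 and 21.2 FPKM in wild-type LPS+ATP, 164, 163 and 162 FPKM in Nlrp3-/- control, and 82.9, 86.4 and 83.8 FPKM in Nlrp3-/- LPS+ATP. Col6a2 was 17.3, 18.2 and 18.6 FPKM in wild-type control, 6.85, 7.67 and 7.53 FPKM in wild-type LPS+ATP, 64.2, 67.2 and 64.8 FPKM in Nlrp3-/- control, and 28.7, 29.0 and 28.7 FPKM in Nlrp3-/- LPS+ATP. Col6a3 was 7.69, 7.89 and 7.87 FPKM in wild-type control, 6.32, 6.55 and 5.85 FPKM in wild-type LPS+ATP, 26.8, 28.4 and 27.3 FPKM in Nlrp3-/- control, and 17.5, 17.3 and 17.0 FPKM in Nlrp3-/- LPS+ATP. All 3 genes had Nlrp3-/- control highest and wild-type LPS+ATP lowest, and no groups overlapped. By limma the genotype difference of Col6a1 was 1.86 (SE 0.03, adjusted p = 5.48e-12) in control and 1.97 (SE 0.03, adjusted p = 5.26e-12) after LPS+ATP. Col6a2 differed by 1.80 (SE 0.04, adjusted p = 6.18e-11) and 1.84 (SE 0.04, adjusted p = 1.08e-10), and Col6a3 by 1.69 (SE 0.04, adjusted p = 8.06e-11) and 1.34 (SE 0.04, adjusted p = 8.78e-10), both by limma.

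Col12a1 and Col16a1 are fibril-associated collagens, and Col8a1 is a chain of vessel walls. Col12a1 was 8.24, 8.16 and 8.38 FPKM in wild-type control, 7.61, 7.92 and 7.98 FPKM in wild-type LPS+ATP, 42.8, 44.0 and 43.6 FPKM in Nlrp3-/- control, and 30.6, 29.5 and 29.9 FPKM in Nlrp3-/- LPS+ATP. Col16a1 was 1.16, 1.13 and 1.62 FPKM in wild-type control, 1.21, 1.21 and 1.46 FPKM in wild-type LPS+ATP, 5.70, 6.24 and 6.24 FPKM in Nlrp3-/- control, and 4.87, 4.84 and 4.71 FPKM in Nlrp3-/- LPS+ATP. Col8a1 was 2.87, 2.04 and 2.33 FPKM in wild-type control, 0.775, 0.690 and 0.669 FPKM in wild-type LPS+ATP, 8.68, 9.10 and 8.83 FPKM in Nlrp3-/- control, and 3.41, 3.63 and 3.497 FPKM in Nlrp3-/- LPS+ATP. Each was higher in Nlrp3-/- in both states without overlap. For Col16a1 the wild-type groups overlapped. By limma, Col12a1 differed between genotypes by 2.26 (SE 0.03, adjusted p = 8.57e-13) in control and 1.81 (SE 0.03, adjusted p = 7.90e-12) after LPS+ATP. For Col16a1 the values were 1.62 (SE 0.08, adjusted p = 2.45e-08) and 1.34 (SE 0.08, adjusted p = 1.44e-07), and for Col8a1 1.54 (SE 0.08, adjusted p = 2.28e-08) and 1.40 (SE 0.08, adjusted p = 6.60e-08), by limma.

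Col18a1 and Col15a1, whose C-terminal fragments are endostatins, had the smallest genotype differences. Col18a1 was 3.85, 3.91 and 3.62 FPKM in wild-type control, 4.53, 4.70 and 5.39 FPKM in wild-type LPS+ATP, 6.88, 5.89 and 5.82 FPKM in Nlrp3-/- control, and 7.91, 7.22 and 7.47 FPKM in Nlrp3-/- LPS+ATP. Col15a1 was 0.677, 0.745 and 0.747 FPKM in wild-type control, 0.315, 0.321 and 0.281 FPKM in wild-type LPS+ATP, 1.75, 1.62 and 1.67 FPKM in Nlrp3-/- control, and 0.685, 0.582 and 0.672 FPKM in Nlrp3-/- LPS+ATP. Nlrp3-/- libraries lay above wild-type libraries of the same state for both. The log2 differences were 0.58 (SE 0.07, adjusted p = 3.81e-05) in control and 0.54 (SE 0.07, adjusted p = 7.33e-05) after LPS+ATP for Col18a1, and 0.64 (SE 0.05, adjusted p = 1.40e-06) and 0.33 (SE 0.05, adjusted p = 2.84e-04) for Col15a1, by limma. All 4 values were under the fold limit and so were not called. With a pseudocount of 0.1 Col15a1 was called in control at 1.11.

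**Figure D3:**
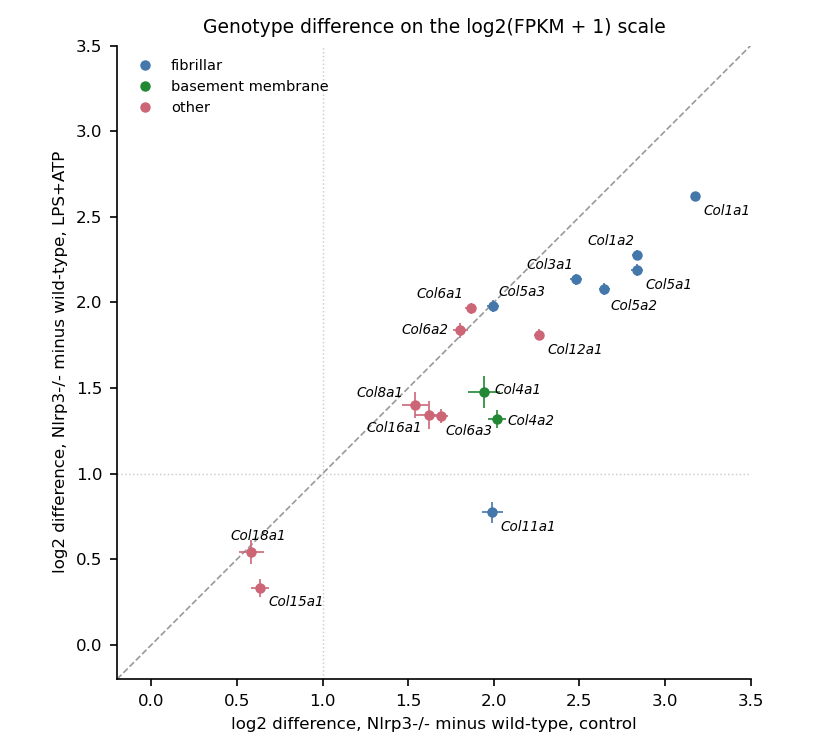
Log2 difference between Nlrp3-/- and wild-type for the 17 detected collagen genes, in control on the x axis and after LPS+ATP on the y axis, on the log2(FPKM + 1) scale, with error bars of 1 SE. Dotted lines mark the fold limit of 1 and the dashed line marks equal values. Col1a1 lies farthest out at 3.18 and 2.62, and Col11a1 lies far under the dashed line.

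Stimulation moved the chains in different directions. In wild-type BMDMs, 1 of the 17 genes was called higher after LPS+ATP (Col5a3) and 2 lower (Col6a1 and Col6a2), where 8.25% of tested genes were called higher and 11.2% lower. In Nlrp3-/- BMDMs, 1 was called higher (Col5a3) and 3 lower (Col6a2, Col8a1 and Col11a1), where 6.64% of tested genes were called higher and 8.21% lower. With so few members called, these counts are given as a description. Col11a1 passed the limit on FPKM only through Nlrp3-/- control, the group it is compared with here. Its mean FPKM after LPS+ATP was 0.199 of control in Nlrp3-/- and 0.242 in wild-type, where it was called with a pseudocount of 0.1 (-1.25). The split of the calls depended on the scaling. Median-ratio scaling gave 2 higher and 0 lower in wild-type and 1 higher and 1 lower in Nlrp3-/-, and upper-quartile scaling 2 higher and 1 lower in wild-type and 1 and 3 in Nlrp3-/-. With adjusted p alone and no fold limit, 8 were higher and 7 lower in wild-type (23.3% and 53.1% of tested genes), and 3 higher and 13 lower in Nlrp3-/- (20.6% and 53.8%). The median log2 difference over the 17 was -0.00219 in wild-type, beside -0.25 over all tested genes, and -0.45 in Nlrp3-/-, beside -0.24.

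Median-ratio scaling shifted the median stimulation difference over all genes by 0.25 (wild-type) and 0.23 (Nlrp3-/-), and upper-quartile scaling by 0.13 and 0.10. Median-ratio scaling moved the median genotype difference by -0.12 in control and -0.15 after LPS+ATP. Over all tested genes, 1041 were called higher and 1411 lower in wild-type, and 1399 and 876 under median-ratio scaling. In Nlrp3-/- the same counts were 838 and 1036, and 1093 and 604 under median-ratio scaling. Small stimulation differences of single collagen genes are therefore read against this shift.

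Col5a3 rose after LPS+ATP, 3.70-fold in mean FPKM in wild-type and 3.33-fold in Nlrp3-/-. By limma the log2 difference was 1.71 (SE 0.04, adjusted p = 3.33e-12) in wild-type and 1.70 (SE 0.04, adjusted p = 4.61e-12) in Nlrp3-/-. Its interaction term was -0.01 (SE 0.05, adjusted p = 0.867). The other type V chains moved little, with Col5a1 at 0.20 (SE 0.03, adjusted p = 3.09e-04) in wild-type and -0.45 (SE 0.03, adjusted p = 3.90e-07) in Nlrp3-/- by limma. Col5a2 stood at 0.24 and -0.33, Col1a1 at 0.20 and -0.36, and Col1a2 at 0.24 and -0.33 in wild-type and Nlrp3-/-. These 4 genes were thus higher after LPS+ATP in wild-type and lower in Nlrp3-/-, without overlap of the libraries and under the fold limit. Of all 12622 tested genes, 3020 lay wholly higher after LPS+ATP in wild-type and 7023 wholly lower in Nlrp3-/-. Under median-ratio scaling the values in Nlrp3-/- were -0.16 for Col5a1, -0.04 for Col5a2 (adjusted p = 0.347, limma), -0.07 for Col1a1 and -0.03 for Col1a2 (adjusted p = 0.320, limma), and those of these 4 genes in wild-type were 0.50 to 0.56.

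Type VI chains were lower after stimulation in both genotypes with FPKM. Col6a1 decreased by 1.04 on the log2 scale in wild-type (SE 0.03, adjusted p = 8.22e-11, limma) and by 0.94 in Nlrp3-/- (SE 0.03, adjusted p = 2.84e-10, limma), the latter just under the fold limit. Col6a2 decreased by 1.19 and 1.15 (adjusted p = 3.72e-10 and 6.64e-10, limma). Under median-ratio scaling these values were -0.73 for Col6a1 in wild-type and -0.89 and -0.87 for Col6a2, which are not called. Col6a3 had -0.29 and -0.64, and 0.00358 in wild-type under median-ratio scaling.

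Col8a1 had -0.99 (SE 0.08, adjusted p = 3.16e-07) in wild-type and -1.13 (SE 0.08, adjusted p = 1.26e-07) in Nlrp3-/- by limma. In wild-type it was called when wild-type control replicate 2 (-1.07), wild-type control replicate 3 (-1.003) or wild-type LPS+ATP replicate 1 (-1.01) was left out, and also with TPM (-1.38) and a pseudocount of 0.1 (-1.62). In Nlrp3-/- it was -0.87 under median-ratio scaling, which is not called. Col3a1 had -0.52 (SE 0.03, adjusted p = 4.58e-08) and -0.87 (SE 0.03, adjusted p = 7.08e-10), and Col15a1 -0.40 (SE 0.05, adjusted p = 2.86e-05) and -0.70 (SE 0.05, adjusted p = 2.77e-07) by limma. With a pseudocount of 0.1 Col15a1 was called in both genotypes (-1.02 and -1.26), and with TPM in Nlrp3-/- (-1.03). Col12a1 had -0.07 in wild-type, which turned to 0.23 under median-ratio and 0.09 under upper-quartile scaling, and -0.52 in Nlrp3-/-. For Col16a1 the values were -0.00219 (adjusted p = 0.982, limma) in wild-type, where scaling or leaving out a library changed the sign, and -0.28 in Nlrp3-/-.

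Type IV chains were higher after stimulation in wild-type. Col4a2 had 0.86 (SE 0.05, adjusted p = 2.91e-08) in wild-type, which passed the fold limit under median-ratio (1.16) and upper-quartile scaling (1.02), and 0.17 (SE 0.05, adjusted p = 0.0127) in Nlrp3-/- by limma. Col4a1 had 0.57 (SE 0.09, adjusted p = 1.68e-04) and 0.11 (SE 0.09, adjusted p = 0.309). Col18a1 had 0.29 (SE 0.07, adjusted p = 0.00296) and 0.25 (SE 0.07, adjusted p = 0.00811) by limma.

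**Figure D4:**
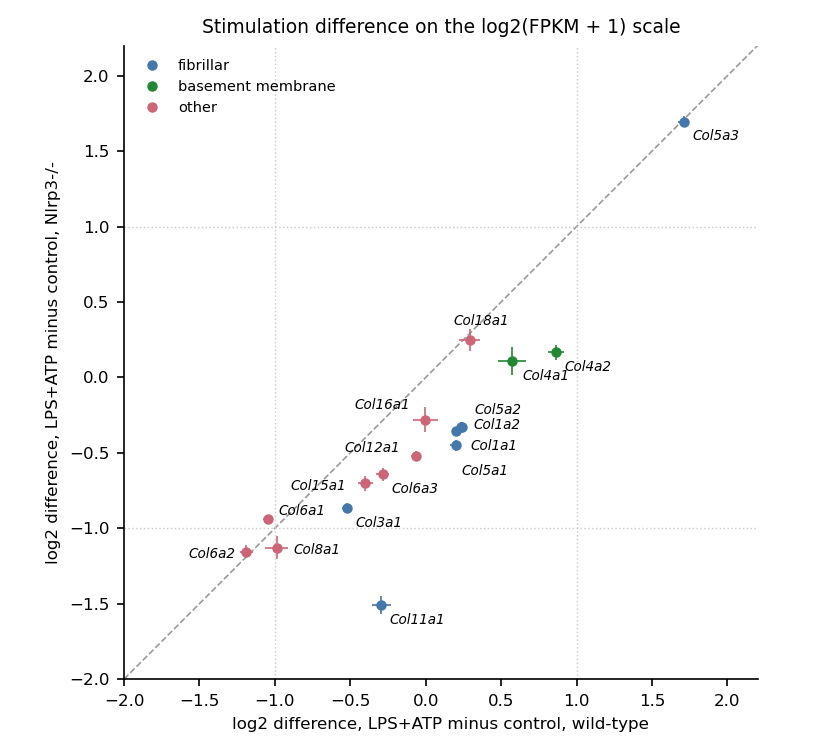
Log2 difference between LPS+ATP and control for the 17 detected collagen genes, in wild-type on the x axis and in Nlrp3-/- on the y axis, on the log2(FPKM + 1) scale, with error bars of 1 SE. Dotted lines mark the fold limit and the dashed line marks equal values. Col5a3 stands at 1.71 and 1.70, Col6a2 at -1.19 and -1.15, and most fibrillar chains lie under the dashed line.

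The interaction term asks whether the genotype difference changed with stimulation. It was called for 1 of the 17 genes, where 0.721% of tested genes were called with a positive and 1.43% with a negative term. This was Col11a1, at -1.22 (SE 0.09, adjusted p = 2.85e-06) by limma, and with a pseudocount of 0.1 it was -0.96 and not called. Col11a1 entered the test only through the Nlrp3-/- control libraries, one of the groups in this term, so the call is a description. The ratio of the genotypes in its mean FPKM was 13.3 in control and 10.9 after LPS+ATP. With adjusted p alone, 0 of the 17 terms were positive and 11 negative, where 14.7% of all tested genes had a positive and 13% a negative term. The 11 were Col1a1 at -0.56, Col1a2 at -0.56, Col3a1 at -0.35, Col5a1 at -0.65, Col5a2 at -0.57, Col4a1 at -0.46, Col4a2 at -0.70, Col6a3 at -0.36, Col12a1 at -0.45, Col15a1 at -0.30 and Col11a1, of which Col15a1 also passed the limit only through Nlrp3-/- control. The ratio of the genotypes in mean FPKM was smaller after LPS+ATP for 14 of the 17 genes, Col11a1 and Col15a1 among them. This was not counted over all tested genes, so it is a description. The ratio was larger for 3, which were Col6a1, Col6a2 and Col8a1. For these 3 the interaction terms were 0.10 (SE 0.05, adjusted p = 0.123), 0.03 (SE 0.06, adjusted p = 0.735) and -0.14 (SE 0.11, adjusted p = 0.383) by limma.

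Chains that assemble together did not keep fixed ratios. Col1a1 stood to Col1a2 at 1.70 to 1.71 in wild-type control and 1.60 to 1.72 in wild-type LPS+ATP, and at 2.13 to 2.16 and 2.06 to 2.15 in the Nlrp3-/- groups. This FPKM ratio was higher in every Nlrp3-/- library than in any wild-type library. Col6a1 stood to Col6a2 at 2.35 to 2.51 in wild-type control and 2.43 to 2.55 in Nlrp3-/- control, against 2.79 to 2.92 and 2.89 to 2.98 after LPS+ATP. That ratio moved with stimulation in both genotypes, and the control ranges of the genotypes overlapped. Col5a1 stood to Col5a3 at 1.99 to 2.12 in wild-type control, 0.620 to 0.693 in wild-type LPS+ATP, 3.45 to 3.60 in Nlrp3-/- control and 0.739 to 0.782 in Nlrp3-/- LPS+ATP, so Col5a3 exceeded Col5a1 after stimulation in either genotype. For Col3a1 to Col1a1 the ranges were 0.421 to 0.442, 0.250 to 0.269, 0.266 to 0.279 and 0.189 to 0.192 in the same order. Col4a1 to Col4a2 lay between 1.05 and 1.45 over all libraries, with overlap between the genotypes. These ratios were not tested.

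Across the 12 libraries, Pearson's r of log2(FPKM + 1) with Col1a1 was 1.00 for Col1a2 and 0.999 for Col5a2 and Col5a1, and 0.993 for Col12a1 and 0.992 for Col16a1. It was 0.738 for Col5a3 and 0.681 for Col15a1. The 12 points fall into 4 groups and share their libraries, so these values are a description.

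Of the 27 genes under the limit, none was at 0 in every library, 12 were above 0 in all 12 libraries, 11 never reached 0.1 FPKM and 16 peaked between 0.1 and 1 FPKM. In control, 13 of the 27 were wholly higher in Nlrp3-/-, 1 wholly lower and 13 overlapped, and after LPS+ATP 8 were higher, 1 lower and 18 overlapped. Over all 42713 rows under the limit, 5.82% were wholly higher and 1.02% wholly lower in control, and 4.42% and 1.16% after LPS+ATP. Col2a1, the main chain of cartilage fibrils, was 0.00525, 0.00472 and 0.00877 FPKM in wild-type control and 0.273, 0.253 and 0.372 FPKM in Nlrp3-/- control. Col7a1, the chain of anchoring fibrils, was 0.0977, 0.110 and 0.131 FPKM in wild-type control and 0.601, 0.507 and 0.550 FPKM in Nlrp3-/- control. Col6a5, a further type VI chain, was 0.0657, 0.0381 and 0.0954 FPKM in wild-type control, 0.479, 0.501 and 0.528 FPKM in Nlrp3-/- control and at or near 0 in all 6 stimulated libraries. These levels are low, so the depth behind them is small, and these genes, which were named after their values were seen, were not tested.

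Many genes that process collagen were also higher in Nlrp3-/-. Of 33 genes listed, 28 were tested, and 15 were called higher in Nlrp3-/- control and 18 in Nlrp3-/- LPS+ATP, with 0 lower in either, against 6.02% and 4.48% of all tested genes. P3h2 and Pcolce2 reached FPKM 1 in Nlrp3-/- libraries alone, and Loxl4 in 2 wild-type libraries besides, so these passed the limit only through Nlrp3-/-. The list was also chosen with earlier results of these data known, so the counts are a description. All 5 lysyl oxidases, which cross-link collagen and elastin, were called higher after LPS+ATP and 4 of them in control. Lox was 32.0, 26.8 and 28.0 FPKM in wild-type control, 101, 99.6 and 104 FPKM in wild-type LPS+ATP, 204, 219.8 and 206 FPKM in Nlrp3-/- control, and 239, 240.3 and 245 FPKM in Nlrp3-/- LPS+ATP. The log2 genotype difference of Lox was 2.82 (SE 0.06, adjusted p = 1.59e-11) in control and 1.25 (SE 0.06, adjusted p = 1.31e-08) after LPS+ATP by limma. Its interaction term, -1.57, was the 1 called in this list. Of all tested genes, 0.721% were called with a positive and 1.43% with a negative term. Loxl2 had 2.55 and 1.66, Loxl1 1.99 and 1.80, Loxl4 1.28 and 1.25, and Loxl3 0.98 (not called) and 1.30.

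Of 13 tested genes that modify the chains, 5 were called higher in control and 6 after LPS+ATP. In control they were Plod2, a lysyl hydroxylase, at 2.43, P3h4 at 2.22, the prolyl hydroxylases P4ha2 at 1.64 and P4ha3 at 1.44, and P3h1, with 15.1 ± 1.48 FPKM in Nlrp3-/- against 5.79 ± 0.247 FPKM in wild-type (SD, n = 3). After LPS+ATP these stood at 1.48, 1.68, 1.31, 1.39 and 1.17, and P3h3 joined them at 1.30. Among 5 tested folding and export genes, Serpinh1, the collagen chaperone HSP47, was 30.4 ± 1.01 FPKM in wild-type control and 90.8 ± 1.00 FPKM in Nlrp3-/- control (SD, n = 3). Its log2 differences were 1.55 in control and 1.85 after LPS+ATP, beside 2.42 and 1.999 for Fkbp10 and 1.40 and 1.07 for Fkbp14. Among 5 tested genes of propeptide removal, Bmp1, the C-proteinase, had 2.02 and 1.66, its enhancer Pcolce 1.96 and 1.67, the N-proteinase Adamts2 1.41 and 1.34, and Adamts14 0.87 (not called) and 1.49.

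Stimulation called 5 of the 28 processing genes higher in wild-type and 2 in Nlrp3-/-, with 0 lower. Of all tested genes, 8.25% were called higher and 11.2% lower in wild-type, and 6.64% and 8.21% in Nlrp3-/-. The share called higher in Nlrp3-/- lies near that of all genes. Calls of this list were not counted under the other scalings, which moved the stimulation calls over all genes. In wild-type the genes called higher were Lox at 1.78, P4ha1 at 1.63, Plod2 at 1.49, Loxl3 at 1.46 and Adamts14 at 1.13. In Nlrp3-/- they were Loxl3 at 1.78 and Adamts14 at 1.75, and the other 3 stood at 0.20, 0.97 and 0.54.

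Of 10 tested collagen receptor genes, 4 were called higher in Nlrp3-/- in each state and 0 lower, where 6.02% of all tested genes were called higher in control and 4.48% after LPS+ATP. They were Itga11 at 2.17 in control and 1.20 after LPS+ATP, the discoidin receptors Ddr2 at 1.87 and 1.51 and Ddr1 at 1.52 and 1.37, and the uptake receptor Mrc2 at 1.68 and 1.66. Mrc1, the macrophage mannose receptor, was called after stimulation, with -2.69 in wild-type and -2.21 in Nlrp3-/-, and was not called between genotypes. In control it was lower in Nlrp3-/- without overlap, by -0.60 (SE 0.04, adjusted p = 4.55e-07, limma). With adjusted p alone, 8 of the 10 receptor genes were higher and 1 lower in Nlrp3-/- control, as were 4203 and 1832 of the 12622 tested genes.

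Most markers of fibroblasts and other mesenchymal cells were called higher in Nlrp3-/-, as most collagens were. Of 14 fibroblast and other mesenchymal markers without collagens, 12 were tested, and 9 were called higher in Nlrp3-/- control and 8 in Nlrp3-/- LPS+ATP, with 0 lower, beside 6.02% and 4.48% of all tested genes called higher. Lum, Thy1 and Fap reached FPKM 1 in Nlrp3-/- libraries alone, and Twist1 in 1 wild-type library besides, so these passed the limit only through Nlrp3-/-. The list was also chosen with earlier results of these data known, so the counts are a description. The summed FPKM of the 14 markers was 49.9 to 52.0 in wild-type control, 78.4 to 83.1 in wild-type LPS+ATP, 216 to 223 in Nlrp3-/- control and 253 to 259 in Nlrp3-/- LPS+ATP. The ratio of the genotypes was 4.34 in control and 3.18 after LPS+ATP, beside 6.25 and 4.75 for the collagens. The log2 differences in control were 2.95 for Postn, 2.66 for Fbln2, 2.12 for Fbn1, 1.83 for Pdgfrb, 1.497 for Twist1, 1.38 for Prrx1, 1.27 for Dcn and 1.25 for Pdgfra. Loxl1 is in this list and in that of the processing genes. Thy1, at 1.001, was called after LPS+ATP alone. The sum of these markers was higher after stimulation in both genotypes, whereas the collagen sum was lower after it in Nlrp3-/-.

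Bone marrow stromal markers summed to 12.53 to 13.6 FPKM in wild-type control, 6.89 to 10.3 in wild-type LPS+ATP, 47.1 to 49.9 in Nlrp3-/- control and 17.8 to 18.5 in Nlrp3-/- LPS+ATP. Of 5 tested, 4 were called higher in Nlrp3-/- control (Cxcl12 at 1.99, Foxc1 at 1.71, Kitl at 1.12 and Lepr at 1.05) and 0 after LPS+ATP. Of all tested genes, 6.02% were called higher in control and 4.48% after LPS+ATP. With adjusted p alone all 5 were higher in Nlrp3-/- after LPS+ATP, as were 4531 of the 12622 tested genes. Stimulation called 4 of the 5 lower in Nlrp3-/- (Foxc1 at -1.56, Kitl at -1.45, Cxcl12 at -1.11 and Ebf3 at -1.10) and 0 in wild-type, where 8.21% and 11.2% of all tested genes were called lower. Lepr and Ebf3 reached FPKM 1 only in the 3 Nlrp3-/- control libraries, so passing the limit required them to be higher there. Their calls are therefore a description. As ratios of mean FPKM, Foxc1 after LPS+ATP was 0.271 of control in wild-type and 0.236 in Nlrp3-/-, and Ebf3 0.187 and 0.181, so these were lower in both genotypes. Of the 5 interaction terms 1 was called, Cxcl12 at -1.04, where 0.721% of all tested genes were called with a positive and 1.43% with a negative term. The 3 wild-type LPS+ATP libraries were uneven for Cxcl12, at 3.62, 6.80 and 6.70 FPKM. The smooth muscle and pericyte markers Acta2, at 2.57 in control and 2.56 after LPS+ATP, and Tagln, at 2.64 and 2.03, were both called higher, and 4 others of that list were not tested. Their list summed to 35.0 to 37.4 FPKM in wild-type control, 23.8 to 25.3 in wild-type LPS+ATP, 225 to 229.9 in Nlrp3-/- control and 145 to 146 in Nlrp3-/- LPS+ATP.

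Of 3 tested osteoblast markers, Alpl was called higher at 1.55 and 1.04, where 6.02% of all tested genes were called higher in control and 4.48% after LPS+ATP. The osteoblast list summed to 5.80 to 6.75, 2.96 to 3.19, 18.9 to 20.02 and 7.15 to 8.81 FPKM in the order of the groups above. Bglap was at most 0.183 FPKM and Dmp1 at most 0.0532 FPKM in any library. Sp7, which was not tested, was 0.984 to 1.16 FPKM in Nlrp3-/- control and 0.150 to 0.277 FPKM in wild-type control. Runx2 was 2.60 to 3.36 and 1.16 to 1.25 FPKM, and Ibsp 1.23 to 1.56 and 0.561 to 1.18 FPKM, in the same order. Neither of these was called. Of 4 tested endothelial markers, Cdh5 (1.30) and Cldn5 (1.09) were called higher in control and 0 after LPS+ATP, beside the same shares of all tested genes. The other two were not higher in control, with Vwf at -0.62 (SE 0.05, adjusted p = 7.68e-07) in control and -0.68 (SE 0.05, adjusted p = 4.45e-07) after LPS+ATP, and Kdr at -0.21 (SE 0.07, adjusted p = 0.0318) and 0.13 (SE 0.07, adjusted p = 0.150), by limma. The endothelial list summed to 12.01 to 13.5, 9.06 to 9.44, 14.6 to 16.6 and 9.46 to 10.7 FPKM. Cldn5 reached FPKM 1 only in the 3 Nlrp3-/- control libraries, so passing the limit required it to be higher there. No chondrocyte marker passed the limit on FPKM, and that list summed to 0.480 to 0.579, 0.638 to 0.929, 1.23 to 1.60 and 0.716 to 1.13 FPKM. Acan and Hapln1 were at 0 in 11 and 10 of the 12 libraries, and Matn1 and Comp overlapped between the genotypes in control. Sox9 was 0.974 to 1.33 FPKM in Nlrp3-/- control, with 2 libraries above FPKM 1, and 0.226 to 0.298 FPKM in wild-type control.

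The 8 macrophage markers, in 9 rows because Itgam has 2 identifiers, were called in 0 of 9 rows between genotypes in either state. Of all tested genes, 6.02% were called higher and 0.689% lower in control, and 4.48% and 0.57% after LPS+ATP. The macrophage markers summed to 19974 to 21159 FPKM in wild-type control, 11793 to 11862 in wild-type LPS+ATP, 19071 to 19319 in Nlrp3-/- control and 11118 to 11366 in Nlrp3-/- LPS+ATP, a ratio of the genotypes of 0.926 in control and 0.950 after LPS+ATP. Lyz2 made up most of this sum, and without it the ratios were 0.669 and 0.816. With adjusted p alone, 5 of the 9 rows were lower in Nlrp3-/- control and 4 after LPS+ATP, and 0 were higher. Of all 12622 tested genes, 1832 were lower and 4203 higher in control, and 1593 lower and 4531 higher after LPS+ATP. Cd68 had -0.73 and -0.39, Csf1r -0.62 and -0.02, Fcgr1 -0.40 and -0.71, and Adgre1 -0.36 and -0.49 in control and after LPS+ATP. Whether non-macrophage cells were present, and whether they had a part in the collagen differences, was not tested.

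**Figure D5:**
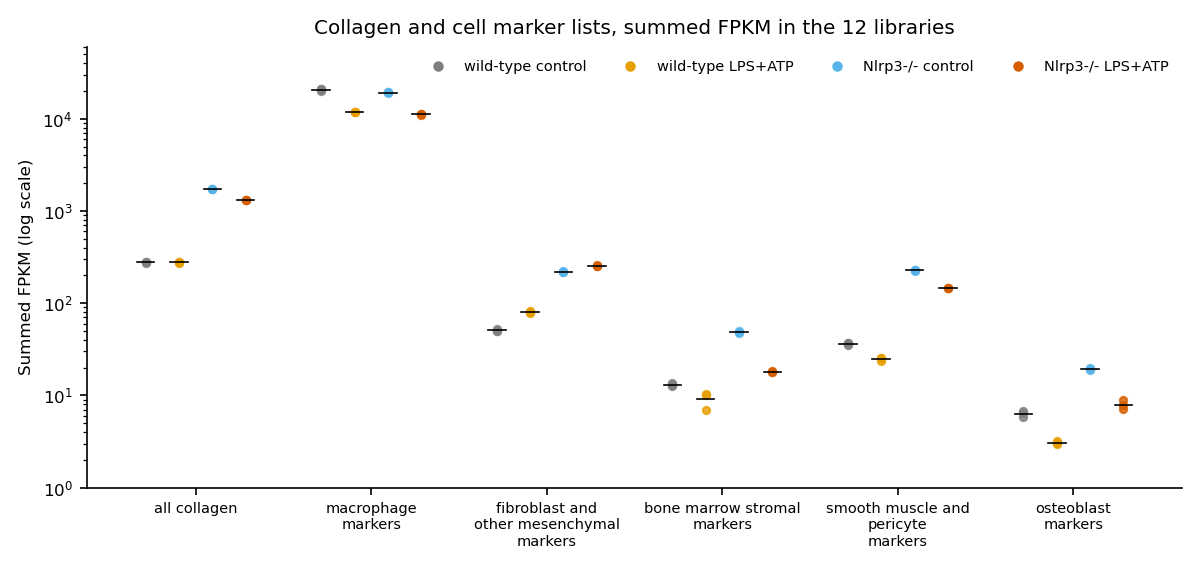
Summed FPKM of the 44 collagen genes and of 5 marker lists on a log axis, with 1 point per library, 3 libraries per group and a bar at the group mean. Mesenchymal, stromal, smooth muscle and osteoblast lists are higher in Nlrp3-/- than in wild-type libraries of the same state, as the collagens are, and the macrophage list is not.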

How the data were processed

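The 4 groups had 3 RNA libraries each. For every gene and library the authors deposited an FPKM value. The submitters' processing notes name the GRCm39 build and DESeq2 1.24.0, and the aligner is not given in the sources used here. No counts were used, so the depth in reads is unknown. Groups and replicate numbers came from the sample titles. 0 columns of values were left unused. Genes with FPKM of 1 or more in at least 3 libraries entered a limma fit (version 3.58.1 in R 4.3.3) of log2(FPKM + 1) on 4 group means, with a variance trend and Benjamini-Hochberg adjustment. The script was first tested on simulated data. The classes, the processing, receptor and marker lists, and the members themselves were chosen with earlier results of these data known. Every detected collagen gene was named, with library values, and of the lists each gene called between genotypes. Alternatives were a pseudocount of 0.1, no filter, FPKM of at least 5, TPM, median-ratio and upper-quartile scaling, no fold limit, a fit without the trend, a fit of only the groups compared, the replicate number as a block, another detection limit and class border, and leaving out each library. Promoters came from RefSeq and overlaps from GENCODE, both on GRCm38, so no gene coordinates of the files' build are given. Levels, ratios and figures were computed in Python 3.11.15 (pandas 2.3.3, matplotlib 3.10.9).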

Additional observations from a re-analysis of the deposited data

Results flagged for a closer look

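Col11a1 had an interaction term past the threshold, which means that its genotype difference on the log2(FPKM + 1) scale differed between control and LPS+ATP. The term was -1.22 on the log2(FPKM + 1) scale (SE 0.09, adjusted p = 2.85e-06, limma with Benjamini-Hochberg adjustment), from a genotype difference of 1.99 in control and 0.78 after LPS+ATP. All 3 Nlrp3-/- libraries were lower after LPS+ATP, at 0.723 to 0.914 FPKM against 3.94 to 4.43 FPKM, and all 3 wild-type libraries were lower too, at 0.0601 to 0.0954 FPKM against 0.294 to 0.347 FPKM. As ratios of mean FPKM, the genotypes stood 13.3 to 1 in control and 10.9 to 1 after LPS+ATP. With a pseudocount of 0.1 the term was -0.96 (adjusted p = 0.00476, limma), under the fold limit. Leaving out any library did not change the call. Col11a1 passed the limit on FPKM only through the Nlrp3-/- control libraries, whose height enters this term, so the call is a description and no independent support for a change.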

How the results depend on the processing

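The counts of called collagen genes between genotypes were 15 in control and 14 after LPS+ATP, and leaving out each library gave 15 to 15 and 14 to 14. For stimulation the main counts were 3 in wild-type and 4 in Nlrp3-/-, and leaving out each library gave 3 to 4 and 4 to 4. For the interaction the main count was 1 and the range 1 to 1.

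In wild-type stimulation the count was 6 with a pseudocount of 0.1, 15 with no fold limit and 2 (both higher) with median-ratio scaling. In Nlrp3-/- it was 2 with median-ratio scaling and 16 with no fold limit. For the interaction it was 0 with a pseudocount of 0.1, 0 with a filter of FPKM at least 5, under which Col11a1 was not tested, and 11 with no fold limit.

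Signs changed for terms that were not called. In wild-type stimulation, Col12a1 was 0.23 with median-ratio and 0.0880 with upper-quartile scaling, and Col6a3 was 0.00358 with median-ratio scaling. There Col16a1 was 0.00101 with a pseudocount of 0.1, 0.0377 with TPM, 0.19 with median-ratio and 0.10 with upper-quartile scaling, and leaving out single libraries took it from -0.0550 to 0.0946, with the sign changed without wild-type control replicate 3 (0.0946), wild-type LPS+ATP replicate 1 (0.0248) or wild-type LPS+ATP replicate 2 (0.0236). For the interaction, Col8a1 was 0.31 with a pseudocount of 0.1 and 0.17 with TPM, and leaving out single libraries took Col18a1 from -0.0851 to 0.0244 (above 0 without wild-type LPS+ATP replicate 3 or Nlrp3-/- control replicate 1), Col5a3 from -0.0482 to 0.00744 (above 0 without wild-type control replicate 1) and Col6a2 from -0.0106 to 0.0614 (below 0 without wild-type LPS+ATP replicate 1). Signs and sides of the threshold held for all members in the genotype comparisons, except that Col15a1 (1.11, control) was called with a pseudocount of 0.1, and Col11a1 (2.41 and 1.65, LPS+ATP) with a pseudocount of 0.1 and with TPM. The cause of these changes was not tested.

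The replicate block left the counts at 15, 14, 3, 4 and 1. Same-numbered libraries of different groups did not deviate together, with correlations from -0.0565 to 0.0528 over 12 pairs. With 3 libraries per group this cannot exclude that the numbers pair the samples, and the labels do not say whether they do. FPKM gives no read counts, and levels under 1 FPKM rest on few fragments.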
